A study of Mus musculus with 24 samples.

Results

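The unfolded protein response and ATF4 genes described here are 38 mouse genes. They comprise 16 genes of protein folding in the endoplasmic reticulum (ER), 7 of ER-associated degradation and 3 sensors of unfolded protein. The rest are 8 stress regulators around the transcription factor ATF4 and 4 amino acid enzymes that ATF4 is known to induce. The 16, called folding genes here, include Xbp1, which encodes a transcription factor. All 38 were looked for by gene symbol in a table of raw counts for 15736 genes, which held 36 of them. Atf3 and Nupr1, both stress regulators, were not analysed here. All 36 passed the filter on low counts in each comparison. The measurements are RNA sequencing counts from dissected epithelium of the otocyst, the vesicle that becomes the inner ear. Control embryos, called con, carried Rosa26rtTA/+, a doxycycline-dependent activator expressed from the Rosa26 locus. Experimental embryos, called R2b, carried Rosa26rtTA/+ and Tg(tetO-s(dn)Fgfr2b)/+, a transgene for a secreted dominant-negative form of the FGF receptor FGFR2b. Both genotypes therefore carried rtTA, and both were exposed to doxycycline, at 1.5 mg/kg by injection of the mother and then 200 mg/kg in chow. Short exposure (labelled E9.75+12 hours, with columns for 3 litters) ran for 12 hours from embryonic stage E9.75. Early exposure (E9.25+24 hours, 4 litters) and late exposure (E10.25+24 hours, 4 litters) ran for 24 hours from E9.25 and E10.25. Dissection was therefore at E10.25 for the short and early exposures and at E11.25 for the late one. Each litter gave 1 pool of con otocysts and 1 pool of R2b otocysts, so a value is the level in a pool of embryos. The comparison asks whether producing a secreted receptor fragment went with a higher level of ER stress genes, and how the genes of the ATF6/XBP1 and ATF4 arms compared.

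Secreted proteins fold in the ER with the help of chaperones such as BiP, the product of Hspa5, and of disulfide isomerases. When unfolded protein accumulates, 3 sensors respond. ATF6 is cleaved to a transcription factor, IRE1 (Ern1) splices Xbp1 mRNA into the form that encodes an active factor, and both factors raise genes of folding and degradation. PERK (Eif2ak3) phosphorylates the translation factor eIF2alpha, which lowers translation in general and favours that of Atf4 mRNA. ATF4 raises genes of amino acid uptake and synthesis, of tRNA charging and of the stress regulators, and other kinases that sense amino acid shortage, haem or viral RNA feed into the same step. Gene counts show neither the splicing of Xbp1 nor the cleavage of ATF6 nor the translation of Atf4.

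Letters that these factors are known to recognise were looked for in the 250 bases before the start annotated by RefSeq, on both strands. The RefSeq promoters of GRCm38.p6 held 34 of the 38 members. The gene lists were not chosen by these letters, but they hold genes that these factors are known to raise. A higher share among the members is therefore no independent result. The ER stress element, CCAAT and CCACG with any 9 bases between them, stood before 8 of 34 members and before 35 of 27025 genes in all (0.130%). Of those 8 members, 7 were among the 14 folding genes with a promoter and 1 among the 6 degradation genes. None was a sensor or an ATF4 gene. Its fixed letters are in capitals. In the GENCODE annotation, which gave the gene positions, Hspa5 starts at chr2:34771970, so its match lies inside the gene there.
Hspa5, chr2:34772025-34772043, same strand as the gene: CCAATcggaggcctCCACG
Hsp90b1, chr10:86705638-86705656, same strand: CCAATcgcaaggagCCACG
Hsp90b1, chr10:86705533-86705551, opposite strand: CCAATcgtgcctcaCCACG
Calr, chr8:84847075-84847093, opposite strand: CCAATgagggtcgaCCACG
Canx, chr11:50325800-50325818, same strand: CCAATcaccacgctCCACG
Pdia6, chr12:17266491-17266509, same strand: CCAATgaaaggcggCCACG
Dnajc3, chr14:118937827-118937845, same strand: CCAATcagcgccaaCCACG
Creld2, chr15:88819520-88819538, opposite strand: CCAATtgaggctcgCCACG
Syvn1, chr19:6046532-6046550, same strand: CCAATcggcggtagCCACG

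The C/EBP-ATF response element bound by ATF4, written TGATGNAA, stood before 5 of 34 members and before 1056 of 27025 genes (3.91%). Of the 5 members, Asns is an amino acid enzyme, Chac1, Atf3 and Nupr1 are stress regulators, and Herpud1 belongs to ER-associated degradation. The match is shown for the 3 that were measured, with 10 bases on each side and its fixed letters in capitals. The 8 letters TGACGTGG, bound by XBP1 and ATF6, stood before 0 of 34 members and 0.603% of all genes, and TGACGTGA before Hspa5 alone among the members and 0.411% of all genes. No match overlapped a match of another motif in these promoters of measured members. A match is a description of the letters only. In GENCODE, Asns starts at chr6:7693254 on the minus strand, so its match lies inside the gene there.
Asns, chr6:7693225-7693232, same strand as the gene: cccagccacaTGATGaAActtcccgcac
Chac1, chr2:119351049-119351056, opposite strand: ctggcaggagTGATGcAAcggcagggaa
Herpud1, chr8:94386317-94386324, opposite strand: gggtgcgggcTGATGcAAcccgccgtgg

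Library totals were 18.7 to 28.2 M counts. The transgene encodes an immunoglobulin tail, and counts on Ighg1 separated the genotypes after short exposure (19 to 36 in con, 19414 to 76096 in R2b) and after early exposure (1 to 5 in con, 26082 to 42515 in R2b). After late exposure they did not. The libraries labelled con held 15754, 28, 5106 and 16 counts in litters 1 to 4, and those labelled R2b held 1504, 25248, 23658 and 19155. Litter 1 of that exposure thus goes against its labels, and the con library of litter 3 also carried transgene reads, so fold changes, medians and counts after late exposure are given with and without litter 1. All otocyst markers were detected in every library, with a summed level of 2297 to 8168 CPM, which are counts per 1 M counts of a library. This sum moved with the genotype: it was higher in R2b in 7 of 7 litters of the first 2 exposures, at 3839 to 4133 CPM in con and 4328 to 5115 CPM in R2b after short exposure, and 2297 to 3678 CPM and 3283 to 5190 CPM after early exposure. Of the 12 markers, 5 were called higher and 1 lower after short exposure, beside 20.0% of all genes called in either direction. After early exposure 2 were called higher and 1 lower, beside 15.6% of all genes. The mitochondrial share was 4.00% to 6.69% after short exposure, 1.53% to 1.70% after early exposure and 1.88% to 2.85% after late exposure. Blood markers summed to 21.5 to 789.7 CPM in con and 92.9 to 119.9 CPM in R2b after short exposure, and to 9.82 to 1631 CPM and 12.8 to 635.5 CPM after early exposure. Mesenchyme markers summed to 138.5 to 457 CPM and 278 to 477 CPM after short exposure, and to 100.7 to 1480 CPM and 119 to 1365 CPM after early exposure. Under the late labels con and R2b, otocyst markers summed to 5165 to 8168 CPM and 5841 to 7631 CPM, and mesenchyme markers to 497 to 1070 CPM and 559 to 889 CPM. Blood markers summed to 173.1 to 686.3 CPM and 274.3 to 5224 CPM there, the highest in the R2b pool of litter 3. That litter stays in the late values given without litter 1. The ranges of the 2 genotypes overlapped for blood and mesenchyme in each case. The part of the otocyst markers' difference and of other cells in the results was not tested. In such pools, fewer cells of a type and less RNA per cell cannot be told apart.

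The otocyst expressed the folding machinery at high levels without the transgene. Per kb of merged exon, the con level after early exposure ran from 482.5 ± 27.2 CPM per kb (SD, n = 4) for Hsp90b1, which encodes the ER chaperone GRP94, to 0.358 ± 0.0669 for Chac1, which encodes a glutathione-degrading enzyme. Pdia3 (384 ± 15.1), Calr (371 ± 24.7) and Hspa5 (361 ± 23.9) followed Hsp90b1 and lay within their spread of one another. All of the first 8 places were held by folding genes. Atf4 (89.3 ± 10.4) came next and Ddit4 (56.5 ± 10.7) after it. The sensors Atf6 (6.72 ± 0.651), Eif2ak3 (6.25 ± 0.419) and Ern1 (4.10 ± 0.513) were low, and the pro-apoptotic factor gene Ddit3 (3.07 ± 0.280) and the pseudokinase gene Trib3 (1.11 ± 0.181) lower still. The plot of levels per length of exon shows the same 8 folding genes in the first 8 places in R2b.

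**Figure D1:**
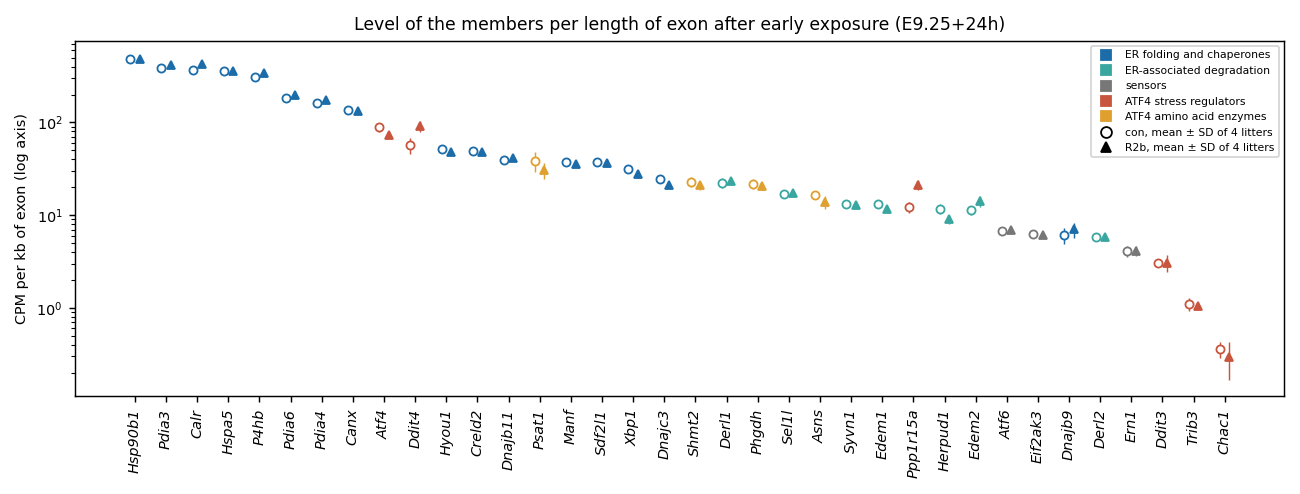
Level of the 36 measured members after early exposure in CPM per kb of merged exon (vertical log axis), as mean and SD of 4 litters, open circles for con and filled triangles for R2b, coloured by gene group and ordered by the con level. Hspa5 stood at 361 in con and 359 in R2b, while Ddit4 stood at 56.5 and 91.2 and Ppp1r15a at 12.3 and 21.2.

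Among the 36 members, 6 were called after short exposure, where called means an adjusted p (FDR) under 0.05 in edgeR's quasi-likelihood test over all genes, and 20.0% of the 14882 genes tested were called. They were Ddit4, Ppp1r15a, Edem2 and Syvn1, which rose, and Psat1 and Atf4, which fell. The litter as a block called 4 members (11.9% of all genes) and DESeq2 called 7 (23.7%). After early exposure 4 members were called, where 15.6% of 14979 genes were: Ppp1r15a, Ddit4 and Calr rose and Edem1 fell. With the litter as a block, 18 members were called after early exposure, 8 higher and 10 lower, where 40.6% of all genes were, and DESeq2 called 10 members and 21.8% of all genes. These shares lie near those of all genes, so the count as such says nothing particular to these genes. The count without 1 litter or 1 pool was 0 to 10 after short exposure and 1 to 15 after early exposure. Over all genes the same runs called 267 to 4583 genes after short exposure and 322 to 6161 after early exposure. After late exposure no member was called, nor was any of 15203 genes (0%), 175 of which had an unadjusted p under 0.05, and DESeq2 called 0 genes too.

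**Figure D2:**
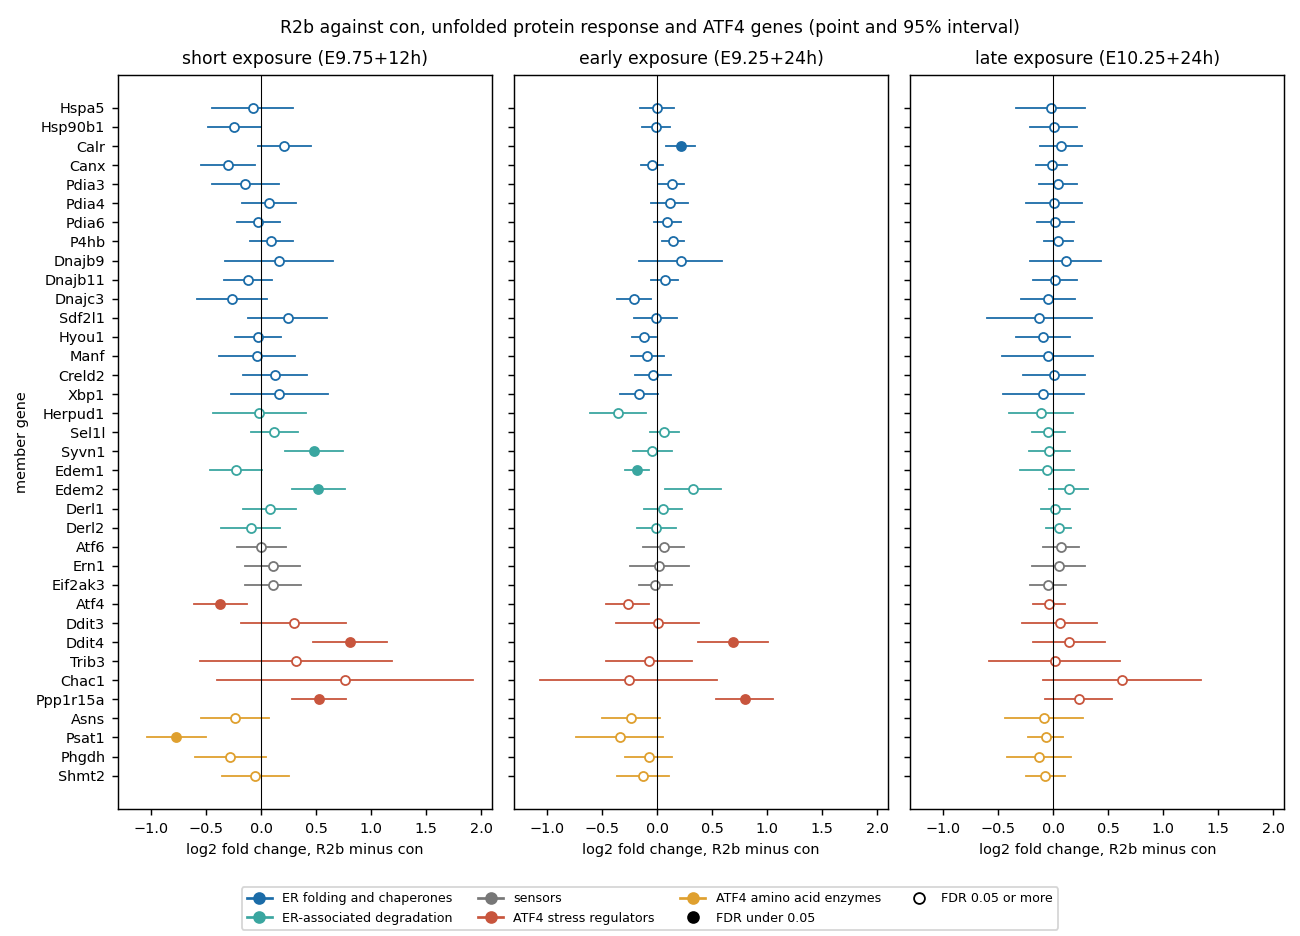
Log2 fold change of R2b against con (horizontal axis) with its 95% interval for each of the 36 measured members, in 1 panel per exposure; filled points have an FDR under 0.05 and colours give the gene group. The folding genes lie close to 0 in every panel, Ddit4 and Ppp1r15a lie to the right in the first 2 panels, and the 4 amino acid enzymes lie to the left of 0 in all 3.

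The folding genes of the ER were not higher as a group in R2b. Of the 16 folding genes, 0 were called after short exposure, beside 20.0% of all genes. There 1 had an unadjusted p under 0.05 in edgeR, beside 5216 of 14882 genes. The median log2 fold change was -0.03, beside 0.01 over all genes. After early exposure 1 was called, beside 15.6% of all genes, and the median was -0.01, beside -0.01 over all genes. No folding gene moved by more than 0.21 on the log2 scale in either direction there. After late exposure 0 were called, beside 0% of all genes. The largest difference there was -0.13 (Sdf2l1) with litter 1 and 0.28 (Dnajb9) without it, and the medians were 0.00 and 0.01.

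Hspa5, the sentinel chaperone of the response, had levels of 1622, 1565, 1526 and 1385 CPM in the con pools of early exposure and 1653, 1526, 1531 and 1370 CPM in the R2b pools of the same litters. The pools of a litter were almost level, and the groups overlapped throughout. Its log2 fold change was -0.00 ± 0.07 (SE, n = 4; 95% interval -0.16 to 0.15; FDR = 0.974). After short exposure it stood at 974, 1086 and 1180 CPM in con and 991, 1317 and 763 CPM in R2b. The R2b pools were spread more widely than the con pools and enclosed them, with a log2 fold change of -0.08 (95% interval -0.44 to 0.29; FDR = 0.778; n = 3). After late exposure the levels were in litters 1 to 4 1091, 1656, 1303 and 1312 CPM under the label con and 1121, 1581, 1342 and 1232 CPM under the label R2b, a log2 fold change of -0.02, and -0.03 without litter 1 (FDR = 0.929).

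Calr encodes calreticulin, a chaperone that holds glycoproteins while they fold. Its levels after early exposure were 1173, 1055, 1017 and 1033 CPM in con and 1297, 1267, 1225 and 1172 CPM in R2b. It was higher in 4 of 4 litters, although the lowest R2b pool lay level with the highest con pool. The log2 fold change was 0.21 ± 0.06 (SE, FDR = 0.0373). The call was lost without any of the 4 litters (FDR = 0.0807, 0.173, 0.123 and 0.0607 without litters 1 to 4), without the R2b pool of litter 1, 2 or 3 or the con pool of litter 2, 3 or 4 (0.0647 to 0.113), and in 1 fit of all libraries (0.0879). After short exposure Calr stood at 1591, 1509 and 1687 CPM in con and 1709, 2077 and 1758 CPM in R2b, a log2 fold change of 0.21 that did not pass (FDR = 0.189).

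Blocking by litter after early exposure called 9 of the 16 folding genes, 5 higher and 4 lower, where it called 40.6% of all genes. Higher were Calr and 4 disulfide isomerases, namely Pdia3 (log2 fold change 0.13, FDR with the block = 0.00913), P4hb (0.14, 0.00586), Pdia4 (0.12, 0.0287) and Pdia6 (0.09, 0.0435). Lower were Dnajc3, a co-chaperone and inhibitor of PERK (-0.21, 0.00234), Xbp1 (-0.17, 0.00686), Hyou1, a nucleotide exchange factor for BiP (-0.12, 0.0207), and Manf, a secreted ER stress protein (-0.09, 0.0458). None of these 8 passed without the block (FDR = 0.0604 to 0.390). P4hb, the disulfide isomerase that also serves collagen prolyl hydroxylase, had levels of 909, 899, 888 and 864 CPM in con and 1021, 1008, 977 and 923 CPM in R2b, which did not overlap.

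Xbp1 and Dnajb9 are raised by the response itself, Dnajb9 (ERdj4) through spliced XBP1. Xbp1 stood at 106, 110.2, 98.0 and 94.8 CPM in con and 100.4, 97.2, 81.7 and 85.7 CPM in R2b after early exposure. It was lower in 4 of 4 litters with overlapping groups (log2 fold change -0.16, FDR = 0.181). After short exposure Xbp1 stood at 54.8, 63.2 and 87.3 CPM in con and 81.5, 94.0 and 54.7 CPM in R2b, higher in 2 litters and lower in litter 3 (0.17, FDR = 0.591). Dnajb9 stood at 17.8, 17.9, 14.2 and 11.8 CPM in con and 17.2, 22.7, 15.9 and 15.7 CPM in R2b after early exposure, with a log2 fold change of 0.21 and an interval of -0.16 to 0.59 (FDR = 0.416). After short exposure its levels were 27.3, 22.6 and 32.6 CPM in con and 26.9, 43.3 and 22.1 CPM in R2b (0.16, FDR = 0.638). Both genes overlapped between genotypes at each exposure. After late exposure Xbp1 stood at 87.5, 142, 113 and 102 CPM in con and 86.8, 128, 109 and 92.3 CPM in R2b, a log2 fold change of -0.09, and -0.11 without litter 1. That of Dnajb9 was 0.11 (interval -0.22 to 0.44), and 0.28 without litter 1 (FDR = 0.359).

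The other folding genes, which encode the chaperones and co-chaperones Hsp90b1, Canx, Dnajb11, Sdf2l1 and Creld2, were not called at any exposure with or without the block. After short exposure Canx, the membrane-bound partner of calreticulin, stood at 575, 581 and 592 CPM in con and 432, 554 and 430.2 CPM in R2b, with no overlap and the lowest folding-gene value (log2 fold change -0.30, FDR = 0.0772). Hsp90b1 stood at 1829, 1832 and 1883 CPM in con and 1437, 1793 and 1457 CPM in R2b there (-0.24, FDR = 0.143). Its interval after early exposure was -0.14 to 0.11.

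**Figure D3:**
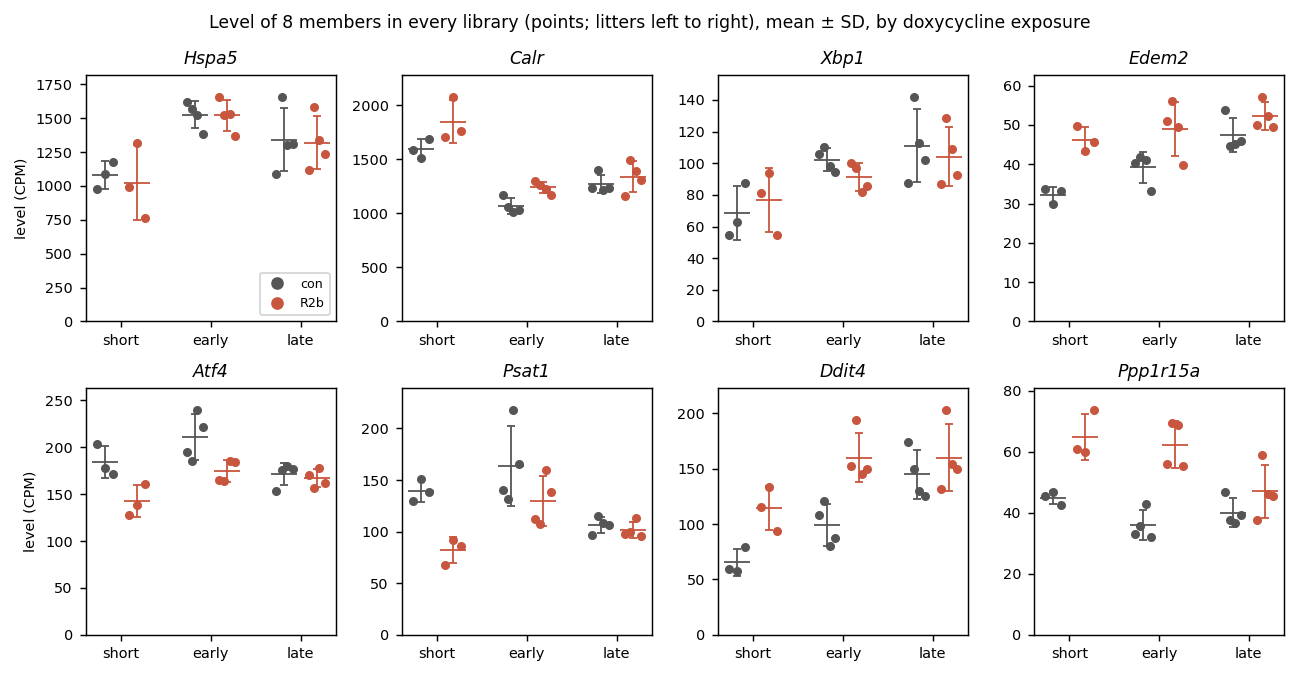
Level of 8 members in CPM (vertical axes from 0) in every library of the 3 exposures, con in grey and R2b in red, litters from left to right within a group, with the mean and SD. Hspa5 and Xbp1 overlap between genotypes everywhere; Ddit4 and Ppp1r15a are higher in R2b, without overlap, at the first 2 exposures; Atf4 is lower in R2b, without overlap, at those exposures.

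The 7 genes of ER-associated degradation, which carry misfolded protein out of the ER, moved in different directions. After short exposure 2 rose and none fell, and after early exposure 1 fell. These counts of 7 stand beside 20.0% and 15.6% of all genes called at those exposures. The group medians were 0.08 after short exposure, -0.01 after early exposure and -0.04 after late exposure, the last turning to 0.01 without litter 1.

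Edem2, which trims mannose from misfolded glycoproteins, stood at 33.6, 29.9 and 33.1 CPM in con and 49.7, 43.3 and 45.7 CPM in R2b after short exposure. Every R2b pool lay above every con pool, with a log2 fold change of 0.52 ± 0.11 (SE, FDR = 0.00826, and 0.134 without litter 1). After early exposure it stood at 40.4, 41.9, 41.1 and 33.3 CPM in con and 51.0, 56.1, 49.4 and 39.7 CPM in R2b. It was higher in 4 of 4 litters, by 0.32 on the log2 scale (FDR = 0.0831, and 5.41e-04 with the litter as a block).

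Syvn1, the ubiquitin ligase HRD1, stood at 75.6, 89.8 and 99.1 CPM in con and 136, 111 and 122 CPM in R2b after short exposure, with no overlap (log2 fold change 0.48 ± 0.12, SE, FDR = 0.0182). The call was lost with the block (0.0529), without litter 1 (0.285), without either pool of litter 1 (0.0932 without R2b, 0.0839 without con) and without the con pool of litter 2 (0.0545). After early exposure its levels overlapped, at 72.1, 66.9, 63.0 and 57.7 CPM in con and 65.2, 64.8, 65.6 and 56.4 CPM in R2b (-0.04, FDR = 0.751). The difference between these 2 effects was -0.50 (unadjusted p = 0.00239, FDR = 0.218) and did not pass.

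Edem1, a paralog of Edem2 that is induced by spliced XBP1, moved the other way. Its levels after early exposure were 84.0, 83.4, 87.2 and 86.3 CPM in con and 74.0, 69.6, 77.9 and 78.4 CPM in R2b, so that every R2b pool lay below every con pool (log2 fold change -0.18 ± 0.05, SE, FDR = 0.0355). The call was lost without any litter (0.0577 to 0.161), without any con pool (0.0634 to 0.0808), without the R2b pool of litter 1 or 2 (0.103 and 0.0907) and in 1 fit of all libraries (0.165). After short exposure it stood at 56.6, 69.1 and 63.1 CPM in con and 54.3, 55.9 and 50.7 CPM in R2b (-0.23, FDR = 0.151).

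Herpud1, a membrane component of the same machinery and a target of both arms, stood at 30.1, 29.9, 24.2 and 24.4 CPM in con and 24.4, 21.4, 18.6 and 20.5 CPM in R2b after early exposure. It was lower in 4 of 4 litters (log2 fold change -0.35, FDR = 0.0626, and 0.00145 with the block). After short exposure it stood at 24.3, 25.9 and 35.0 CPM in con and 30.0, 33.8 and 20.4 CPM in R2b, and after late exposure at 25.6, 37.5, 33.8 and 30.9 CPM and 29.2, 30.9, 33.3 and 25.0 CPM, with overlap at both. The late log2 fold change was -0.11, and -0.19 without litter 1 (FDR = 0.497). Sel1l, the partner of HRD1, and the channel genes Derl1 and Derl2 were called in no exposure, with log2 fold changes between -0.09 (Derl2) and 0.12 (Sel1l) after short exposure.

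The 3 sensor genes did not pass at any exposure. After early exposure the log2 fold change was 0.06 for Atf6 (62.0 ± 6.01 CPM in con, 64.6 ± 4.85 in R2b, SD, n = 4), 0.02 for Ern1 (33.5 ± 4.19 and 33.9 ± 4.35) and -0.02 for Eif2ak3 (37.7 ± 2.53 and 37.2 ± 1.59). Each interval lay between -0.25 and 0.29. After short exposure the values were 0.00, 0.10 and 0.11, and after late exposure 0.07, 0.05 and -0.05 (0.15, 0.18 and -0.08 without litter 1).

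The stress regulators around ATF4 did not move together. Ddit4 and Ppp1r15a rose at both of the earlier exposures, while the transcript of Atf4 itself was lower and Ddit3, Trib3 and Chac1 did not pass. The median of the 6 measured regulators was 0.42 after short exposure, -0.03 after early exposure and 0.10 after late exposure (0.18 without litter 1).

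Ddit4 encodes REDD1, an inhibitor of the growth kinase mTORC1 that several kinds of stress induce. It stood at 59.5, 57.3 and 79.2 CPM in con and 116, 134 and 93.6 CPM in R2b after short exposure, a log2 fold change of 0.81 ± 0.15 (SE, FDR = 0.00501, and 0.0952 without litter 1). After early exposure it stood at 108, 121, 79.9 and 87.9 CPM in con and 153, 194, 145 and 149.5 CPM in R2b, a log2 fold change of 0.69 ± 0.14 (FDR = 0.0150, and 0.0846 without litter 1). At both exposures every R2b pool lay above every con pool, so it was higher in 7 of 7 litters. After late exposure the libraries labelled con held 174, 149.9, 130.3 and 126 CPM and those labelled R2b 132, 203, 154 and 150.2 CPM, a log2 fold change of 0.14. The 3 litters other than litter 1 were higher in R2b by 0.33 (FDR = 0.271, and 0.0345 with the block).

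Ppp1r15a encodes GADD34, which directs a phosphatase to eIF2alpha and so restores translation after stress. It stood at 45.5, 46.7 and 42.6 CPM in con and 61.0, 60.0 and 73.6 CPM in R2b after short exposure, a log2 fold change of 0.53 ± 0.11 (SE, FDR = 0.00850, but 0.101 without litter 1 and 0.102 without litter 3). Its levels after early exposure were 33.0, 35.8, 42.9 and 32.2 CPM in con and 55.9, 69.4, 68.8 and 55.4 CPM in R2b. The groups were far apart there, with a log2 fold change of 0.79 ± 0.12 (FDR = 0.00413), and the FDR stayed under 0.05 in every alternative run, the highest being 0.0427. After late exposure the libraries labelled con held 46.9, 37.7, 36.6 and 39.2 CPM and those labelled R2b 37.7, 58.9, 46.1 and 45.5 CPM. Litter 1 alone was lower in R2b there, and without it the log2 fold change was 0.41 (FDR = 0.158, and 0.0604 with the block), against 0.23 with it.

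Atf4 itself stood at 204, 178 and 172 CPM in con and 128, 138 and 161 CPM in R2b after short exposure. All R2b pools lay below all con pools, and Atf4 fell by 0.37 on the log2 scale (SE 0.11, FDR = 0.0378). The call was lost with the block (0.0933), without litter 1 (0.407) or 2 (0.0525), without the litter 1 pool of R2b (0.165) or of con (0.142) and without the litter 2 pool of con (0.0798). After early exposure it stood at 195, 186, 239.5 and 222 CPM in con and 165, 164, 185 and 185 CPM in R2b. The groups again did not overlap, by a narrow margin, with a log2 fold change of -0.27 (FDR = 0.0634, and 3.60e-04 with the block). After late exposure it stood at 154, 176, 179.9 and 177 CPM in con and 170.5, 157, 178 and 162 CPM in R2b, a log2 fold change of -0.04, and -0.09 without litter 1 (FDR = 0.469).

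Ddit3, which encodes the pro-apoptotic factor CHOP and is a standard readout of strong PERK signalling, stood at 3.83, 5.13 and 5.22 CPM in con and 6.67, 5.95 and 4.74 CPM in R2b after short exposure, and at 5.79, 5.51, 4.78 and 4.93 CPM and 5.99, 6.33, 4.18 and 4.59 CPM after early exposure. It was low and overlapped at both exposures, with log2 fold changes of 0.30 (interval -0.18 to 0.77, FDR = 0.362) and 0.01 (-0.37 to 0.38, FDR = 0.988). After late exposure it stood at 6.11, 7.64, 6.49 and 5.64 CPM in con and 6.93, 8.03, 6.04 and 5.96 CPM in R2b (log2 fold change 0.06, and 0.02 without litter 1).

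Trib3, an inhibitor of AKT induced by ATF4 and CHOP, stood at 2.27, 0.928 and 0.949 CPM in con and 2.04, 1.45 and 1.70 CPM in R2b after short exposure. Its levels after early exposure were 2.54, 2.68, 1.80 and 2.40 CPM in con and 2.31, 2.29, 2.27 and 2.08 CPM in R2b. Its log2 fold changes were 0.32 (FDR = 0.610) and -0.07 (FDR = 0.805). Chac1 was near 1 CPM or below in every library, at 0.655, 0.164 and 0.422 CPM in con and 1.02, 0.587 and 0.515 CPM in R2b after short exposure. After early exposure it stood at 0.479, 0.546, 0.584 and 0.737 CPM in con and 0.377, 0.244, 0.623 and 0.710 CPM in R2b. Its intervals were wide, -0.40 to 1.92 and -1.06 to 0.55, so the values are compatible with changes of Chac1 within these bounds. After late exposure Trib3 stood at 2.05, 3.69, 2.22 and 2.46 CPM in con and 2.66, 2.82, 3.29 and 1.70 CPM in R2b, and Chac1 at 0.669, 0.312, 0.363 and 0.379 CPM and 0.599, 0.939, 0.571 and 0.583 CPM. The late log2 fold change was 0.01 for Trib3 and -0.09 without litter 1, and 0.62 for Chac1 and 0.97 without litter 1 (FDR = 0.241).

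The 4 amino acid enzymes all had negative log2 fold changes in all 3 exposures, with medians of -0.26, -0.18 and -0.08. Of these, 1 passed after short exposure, beside 20.0% of all genes, and none after early exposure. With the litter as a block 3 passed after early exposure, all lower, beside 40.6% of all genes. After late exposure without litter 1 the median was -0.19, and none passed.

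Psat1, the aminotransferase of serine synthesis, stood at 129.7, 151 and 138 CPM in con and 67.7, 91.9 and 85.6 CPM in R2b after short exposure. The highest R2b pool lay well below the lowest con pool, and Psat1 fell by 0.77 on the log2 scale (SE 0.12, FDR = 0.00200). The call was lost in 1 alternative, the block without litter 1 (0.0519). Its levels after early exposure were 141, 132, 218 and 165 CPM in con and 112, 108, 159 and 139 CPM in R2b. The litters differed more than the genotypes, and within each of the 4 litters R2b was lower (-0.34, FDR = 0.218, and 1.21e-04 with the block). After late exposure it stood at 96.3, 115, 109 and 106 CPM in con and 97.6, 99.5, 113 and 95.8 CPM in R2b (-0.07, and -0.09 without litter 1).

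Asns, asparagine synthetase, stood at 32.5, 35.2 and 31.5 CPM in con and 22.6, 29.7 and 32.1 CPM in R2b after short exposure (log2 fold change -0.24, FDR = 0.257). Early exposure gave levels of 40.5, 42.6, 47.5 and 48.1 CPM in con and 39.2, 34.7, 31.6 and 46.0 CPM in R2b, lower in 4 of 4 litters (-0.24, FDR = 0.195, and 0.0369 with the block). After late exposure it stood at 31.0, 52.2, 44.5 and 39.0 CPM in con and 45.7, 41.7, 34.7 and 34.9 CPM in R2b. Litter 1 alone was higher in R2b, and the log2 fold change was -0.09 with it and -0.28 without it (FDR = 0.325). Phgdh, the first enzyme of serine synthesis, did not pass after short exposure (-0.28, FDR = 0.196) or early exposure (-0.08, FDR = 0.617). Shmt2, the mitochondrial enzyme that turns serine into glycine, had -0.05 (FDR = 0.824) and -0.13 (FDR = 0.441, and 0.0217 with the block).

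The other ATF4 pathway genes, 46 measured genes of amino acid transport, tRNA charging, one-carbon metabolism and the eIF2alpha kinases, had more members called lower than higher. Their log2 fold changes were negative for 33 after short exposure and 37 after early exposure, beside 48.6% and 51.7% of all genes. After short exposure 17 were called, 1 higher and 16 lower, beside 9.78% lower over all genes, and their median was -0.28. After early exposure 13 were called, 3 higher and 10 lower, beside 6.50% lower over all genes, with a median of -0.14. With the block these counts were 8 (1 higher, 7 lower, of 11.9% called over all genes) and 31 (5 higher, 26 lower, of 40.6%). Leaving out 1 litter or pool gave 0 to 18 and 1 to 32, beside 267 to 4583 and 322 to 6161 of all genes tested. No member of this list was called after late exposure, where the median was -0.05, and -0.08 without litter 1.

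After short exposure the 5 of these with the smallest FDR were Sesn2, Cth, Mthfd2, Eif2s1 and Nars. Sesn2, a stress-induced inhibitor of mTORC1 like Ddit4, rose from 35.0 ± 4.98 to 59.1 ± 2.94 CPM (SD, n = 3; log2 fold change 0.76). Cth, of cysteine synthesis, fell from 16.6 ± 0.419 to 9.35 ± 0.489 CPM (-0.82), and Mthfd2, of mitochondrial folate metabolism, from 32.3 ± 1.13 to 20.1 ± 3.11 CPM (-0.68). Eif2s1, which encodes eIF2alpha, fell by 0.49 and Nars, the asparaginyl-tRNA synthetase, by 0.46 on the log2 scale. All 5 calls were lost without litter 1 (FDR = 0.0746, 0.0561, 0.0961, 0.137 and 0.126), and that of Eif2s1 without litter 3 too (0.0708).

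After early exposure the 5 were Sesn2, Slc38a2, Rab32, Eif2ak4 and Stc2. Sesn2 rose again, from 29.1 ± 3.56 to 46.6 ± 3.06 CPM (log2 fold change 0.68, FDR = 0.00347, at most 0.0417 over the alternatives). Rab32, a small GTPase, rose from 3.28 ± 1.17 to 7.83 ± 1.76 CPM (1.25), and Eif2ak4, the amino acid sensor kinase GCN2, from 87.1 ± 1.77 to 100.3 ± 5.07 CPM (0.20). Slc38a2, a neutral amino acid transporter, fell from 359 ± 15.6 to 288 ± 21.5 CPM (-0.32), and Stc2, a secreted glycoprotein, from 9.71 ± 0.868 to 6.93 ± 0.621 CPM (-0.48). Apart from Sesn2, these calls were lost without some litters, with FDRs of up to 0.0828 (Slc38a2, without litter 1), 0.135 (Rab32, without litter 2), 0.126 (Eif2ak4, without litter 1) and 0.150 (Stc2, without litter 2).

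The other genes of the ATF6/XBP1 pathway, 50 measured genes of ER translocation, glycosylation, degradation and vesicle export, gave 5 calls after short exposure, 4 higher and 1 lower (median -0.04), and 9 after early exposure, 7 higher and 2 lower (median 0.03). These are 10.0% and 18.0% of the list, beside 20.0% and 15.6% of all genes. With the block the counts were 3, where 11.9% of all genes were called, and 20 of the 50 (16 higher, 4 lower), beside 40.6% of all genes. After late exposure none was called, with or without litter 1, and 2 were called, both higher, with the block and without that litter. Over 1 litter or pool left out the counts after short and early exposure were 0 to 14 and 0 to 19. Over all genes tested they were 267 to 4583 and 322 to 6161. After short exposure the 5 were Wfs1 (log2 fold change 0.69), Os9 (0.41), Sec24d (0.78), Creb3l2 (0.29) and Ssr1 (-0.45), of which Creb3l2 (FDR = 0.115) and Ssr1 (0.0518) lost the call with the block. After early exposure the 5 with the smallest FDR were Os9 (0.48), Wfs1 (0.48), Fkbp14 (0.53), Erlec1 (0.27) and Ssr2 (0.24).

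Wfs1, an ER membrane protein, rose from 22.0 ± 0.735 to 35.5 ± 1.23 CPM after short exposure (SD, n = 3; FDR = 0.00207) and from 19.8 ± 2.38 to 27.6 ± 1.84 CPM after early exposure (SD, n = 4; FDR = 0.0148). Os9, a lectin that hands misfolded glycoproteins to HRD1, rose from 118 ± 3.39 to 157 ± 4.57 CPM (FDR = 0.00783) and from 78.8 ± 7.91 to 110.0 ± 12.0 CPM (FDR = 0.0129). Both were lost without litter 1 after short exposure (0.0585 and 0.166), Os9 also without litter 3 (0.0620). After early exposure Os9 was lost without litter 1 or 2 (0.0530 and 0.0849), and Wfs1 without litter 1, 2 or 3 or the R2b pool of litter 1 (0.0518 to 0.107). The other 6 named genes of the list also lost their calls without 1 or more litters (highest FDR 0.0720 for Sec24d, 0.289 for Creb3l2, 0.285 for Ssr1, 0.0851 for Fkbp14, 0.0981 for Erlec1 and 0.111 for Ssr2).

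**Figure D4:**
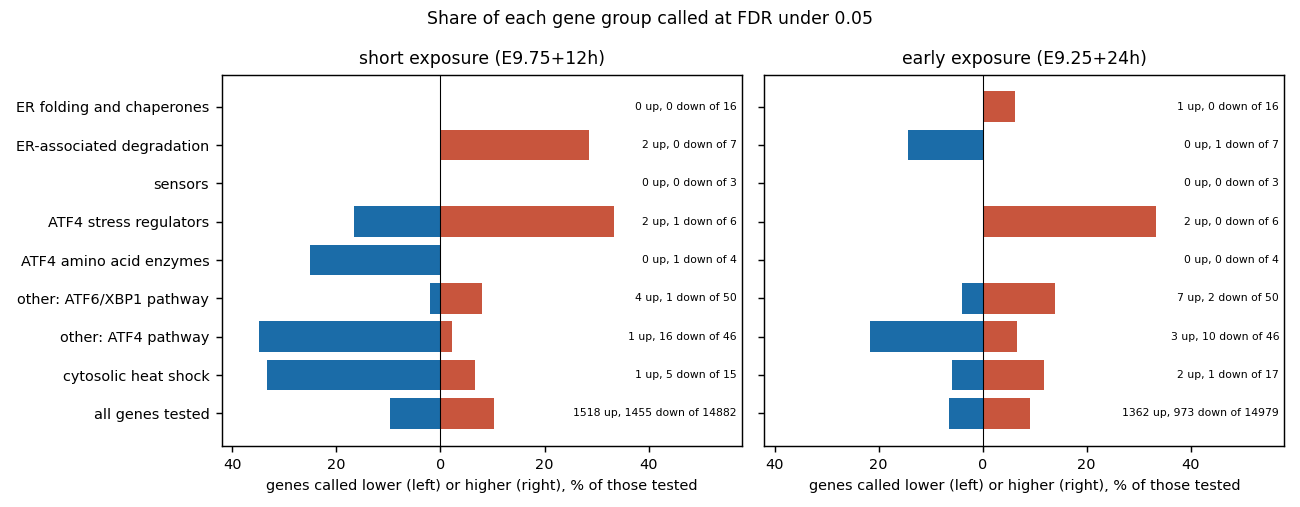
Share of each gene group called lower (blue, to the left) or higher (red, to the right) in R2b after short exposure and early exposure, as a percentage of the genes of that group tested, with the numbers at the right and all genes in the lowest bar. The other ATF4 pathway genes stand out to the left, with 16 of 46 and 10 of 46 lower, beside 9.78% and 6.50% of all genes.

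Set side by side, the 23 measured members of the ATF6/XBP1 arm had median log2 fold changes of -0.02, -0.01 and 0.00 at the 3 exposures, and the 10 of the ATF4 arm 0.12, -0.10 and -0.01. Without litter 1 the late medians were 0.01 for the ATF6/XBP1 arm and -0.09 for the ATF4 arm. The difference between the arms was not tested as such. Their spread differed: the ATF6/XBP1 arm ran from -0.30 to 0.52 after short exposure and from -0.35 to 0.32 after early exposure, and the ATF4 arm from -0.77 to 0.81 and from -0.34 to 0.79. By litter after early exposure, the median of the ATF6/XBP1 arm was -0.03, -0.02, 0.01 and 0.02, and that of the ATF4 arm -0.09, -0.18, -0.10 and -0.08. After short exposure the litters disagreed for the ATF6/XBP1 arm, with medians of 0.07, 0.20 and -0.25 and 14, 18 and 6 of 23 genes higher in R2b. Ighg1 stood at 1464, 2979 and 1001 CPM in the R2b pools of these litters. In those of early exposure it stood at 1229, 1360, 1892 and 1450 CPM. A relation between the arm and the transgene level was not tested. The median of the ATF4 arm after short exposure turned negative (-0.044) when only genes with a mean of at least 1 CPM were kept, which drops Chac1.

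Between the exposures, 26 of the 36 members had the same sign after short exposure and early exposure, which share no library. The same count over all genes was not made, so 26 of 36 cannot be read as particular to these members. No member's effect differed between those exposures, or between late exposure and early exposure, at an FDR under 0.05 in edgeR; nor did that of any of 15688 genes (0%), while 1908 and 1344 genes had an unadjusted p under 0.05 and DESeq2 called 76 (0.484%) and 74 (0.472%). The lowest p among members between late exposure and early exposure belonged to Ppp1r15a (difference of log2 effects -0.57, interval -0.93 to -0.20, unadjusted p = 0.00406 from edgeR, FDR = 0.309). Ddit4 had a difference of -0.55 (unadjusted p = 0.0221 from edgeR, FDR = 0.495). These 2 differences include litter 1 of late exposure, whose libraries go against their labels; without it they were -0.40 (FDR = 0.908) and -0.37, neither of which passed. Without that litter no member was called after late exposure in edgeR without the block, and no gene of 15195 was called. In that fit 6 members had an unadjusted p under 0.05, beside 2430 of the 15195 genes. With the block and without that litter 1 member was called, Ddit4, where 4.04% of genes were.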

How the data were processed

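The authors deposited raw read counts per Ensembl gene; per the submitters' processing notes the reads were aligned with Novoalign 2.08.03 to mm10, and per the labels' protocols the libraries were stranded and poly(A)-selected. The counting tool and any filter are not given in the sources used here. Symbols, positions and exon lengths came from GENCODE M21 (GRCm38). Of 24 samples 22 had a column, and 2 columns named no sample and were not used. CPM used TMM library sizes within an exposure. R2b was compared with con in edgeR 4.0.16 (R 4.3.3; filterByExpr, TMM, quasi-likelihood F test, Benjamini-Hochberg over all genes), fitted in each exposure alone. Differences of effects came from 1 fit of all libraries. The library titles carry a separate number for each exposure, so exposure and set of libraries cannot be told apart in those differences. Intervals are 95% from the same fit, and standard errors come from its F statistic. The scripts were tested on simulated counts. Reads carry no molecular identifiers, and SDs are between litters.

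Members and lists were chosen with earlier results of these data known. Every member is accounted for. Values in every library are given for Hspa5, Xbp1, Herpud1, Atf4, Ddit3, Trib3, Asns and Chac1, and for Dnajb9 after short and early exposure. They are also given, per exposure, for up to 8 members with an FDR under 0.05. Of each other pathway list, up to 5 genes with the smallest FDR under 0.05 are named. Canx, Hsp90b1, P4hb, Phgdh, Shmt2 and the genes given with block values were named after their values were seen, and the cytosolic heat shock list is described in the closing section. The labels pair the 2 pools of a litter, which come from the same female. Same-litter correlations of deviations from the group means were -0.29 to -0.13 after short exposure, 0.47 to 0.81 after early exposure and -0.14 to 0.39 after late exposure, so the values do not bear out the pairing after short exposure. Each comparison was also run with DESeq2 1.42.0, with a block for the litter, with robust dispersion, with size factors by median of ratios, unfiltered, with genes of at least 1 CPM on average, in 1 fit of all libraries, and without each litter or pool.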

Additional observations from a re-analysis of the deposited data

Results flagged for a closer look

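Single pools stood apart from the others of their group in 6 of the 64 groups of 4 pools examined over the 16 named members. The rule has a nominal rate of about 1 group in 20, which was not measured in these data. After early exposure the R2b pool of litter 2 held 193.6 CPM of Ddit4, above 144.8 to 152.6 CPM in the others, and the R2b pool of litter 4 held 56.4 CPM of Syvn1, below 64.8 to 65.6 CPM. After late exposure the con pool of litter 1, the litter that goes against its labels, held 153.6 CPM of Atf4, below 175.5 to 179.9 CPM, and 53.8 CPM of Edem2, above 44.6 to 46.0 CPM. The con pool of litter 2 held 1399 CPM of Calr, above 1220 to 1236 CPM. The R2b pool of litter 2 held 0.939 CPM of Chac1, above 0.571 to 0.599 CPM.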

How the results depend on the processing

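Counts of calls depended on the design more than on scaling or filtering. With the litter as a block, 18 members were called after early exposure, where 40.6% of all genes were. DESeq2 called 10 (21.8% of all genes) there, and edgeR without the block called 4 (15.6%). Outside the members, the block called 8 ATF4 pathway genes after short exposure and 31 after early exposure, beside 11.9% and 40.6% of all genes. For the ATF6/XBP1 pathway it called 3 and 20, beside the same shares. After short exposure DESeq2 called 9 of these genes, beside 23.7% of all genes. The fit of all libraries called 13 there, beside 4560 of 15688 genes. The block moved no other count of these by over 1.5 times. Among the named members it ended the calls of Atf4 and Syvn1 after short exposure, and after early exposure it gave calls to 14: Pdia3, Pdia4, Pdia6, P4hb, Dnajc3, Hyou1, Manf, Xbp1, Herpud1, Edem2, Atf4, Asns, Psat1 and Shmt2.

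Leaving out 1 litter or 1 pool gave 0 to 10 members after short exposure, 1 to 15 after early and 0 to 1 after late exposure. It gave 0 to 14, 0 to 19 and 0 to 2 ATF6/XBP1 pathway genes outside the members, and 0 to 18 and 1 to 32 ATF4 pathway genes after short and early exposure. For the difference between early and short exposure it gave 0 to 6 members, beside 0 to 1899 of all genes. Over all genes the same runs called 267 to 4583 after short exposure, 322 to 6161 after early exposure and 0 to 614 after late exposure. Fewer pools leave less power, and a group left with 1 pool was not used. The median of the ATF4 arm ran from -0.042 to 0.20 after short exposure and was -0.044 with genes of at least 1 CPM alone. For the early exposure it ran from -0.15 to -0.056, and that of the ATF6/XBP1 arm from -0.051 to 0.042.

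Log2 fold changes near 0 turned sign in some settings. Hspa5 became 0.000179 after early exposure with the filter at 1 CPM, and Ddit3 became -0.00516 with the block and -0.00152 in the fit of all libraries. With a litter or pool left out, the range after short exposure was -0.31 to 0.16 for Hspa5, -0.067 to 0.57 for Xbp1, -0.30 to 0.49 for Dnajb9 and -0.25 to 0.34 for Herpud1. After early exposure it was -0.048 to 0.042 for Hspa5, -0.095 to 0.10 for Ddit3 and -0.19 to 0.0058 for Trib3. After late exposure it was -0.13 to 0.091 for Hspa5, -0.21 to 0.045 for Xbp1, -0.040 to 0.14 for Ddit3, -0.19 to 0.22 for Trib3 and -0.28 to 0.035 for Asns. Chac1 and Trib3, which had the lowest con levels per kb of exon, had the widest intervals. The part of depth in this was not tested.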

Other observations

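The heat shock proteins of the cytosol and mitochondria, which serve folding outside the ER, were also compared. After short exposure 6 of 15 tested genes were called, 1 higher and 5 lower, beside 20.0% of all genes, with a median log2 fold change of -0.27. After early exposure 3 of 17 were called, 2 higher and 1 lower, beside 15.6% of all genes. With the litter as a block 12 were called there, 3 higher and 9 lower, beside 40.6% of all genes. None was called after late exposure in edgeR without the block, with or without litter 1, where 0% of all genes were. Hspd1, the mitochondrial chaperonin, fell from 303 ± 27.1 to 157.5 ± 38.3 CPM after short exposure (SD, n = 3; log2 fold change -0.94, edgeR FDR = 0.00208), and its partner Hspe1 from 33.2 ± 4.63 to 15.5 ± 4.98 CPM (-1.09, FDR = 0.00473, and 0.0921 without litter 1). Both have processed copies in the genome, and how reads shared with these were counted is not given in the sources used here. Hsp90aa1 fell by 0.64 (FDR = 0.0592 without litter 1) and Hspa4 by 0.49 (0.144 without litter 1 and 0.0859 without litter 3) on the log2 scale. The small heat shock protein gene Hspb8 rose from 2.06 ± 0.691 to 4.15 ± 0.454 CPM after short exposure (1.01, FDR = 0.0309, but 0.0554 with the litter as a block and 0.256 without litter 1) and from 2.49 ± 1.20 to 6.51 ± 1.09 CPM after early exposure (SD, n = 4; 1.38, FDR = 0.0191, and 0.123 without litter 1). Hspb1 rose from 0.291 ± 0.0640 to 0.941 ± 0.282 CPM after early exposure (1.66, FDR = 0.0122, and 0.0954 without litter 1), and Hsf1 fell by 0.21 there (FDR = 0.0351, lost without any litter, at 0.0581 to 0.222).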
